A study of Mus musculus with 2 samples.

Results

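The genes described here are the mouse vascular endothelial growth factor ligands Vegfa, Vegfb, Vegfc and Vegfd, their receptors Flt1, Kdr and Flt4, and the co-receptors Nrp1 and Nrp2. They were taken by symbol, and all 9 were found among the 17758 genes of a single-cell table and among the 16905 genes of a bulk table. Pgf, which encodes a further ligand of Flt1, is given beside them. The study compared no conditions: it holds 2 samples of peripheral lung from mice at postnatal day 3, 1 in each group, both labelled as control lungs. The bulk sample was PDGFRA+ cells sorted from Pdgfra-H2BGFP lung, a reporter in which nuclear green fluorescent protein marks cells that use the Pdgfra locus. The single-cell sample was a sorted suspension of wild-type lung cells, run on the Chromium 10X 3′ v3 chemistry. Whether animals were pooled and whether the reporter was on 1 or both alleles was not stated.

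In this family, VEGFA binds FLT1 and KDR, VEGFB and PGF bind FLT1, and VEGFC and VEGFD bind FLT4 and, once processed, KDR. KDR carries most of the growth signal in blood vessel endothelium, FLT1 binds VEGFA tightly but signals weakly, and FLT4 is best known from lymphatic endothelium. Neuropilins hold VEGFs and class 3 semaphorins at the cell surface, and in the lung epithelial VEGFA is known for guiding growth of the alveolar capillary bed.

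After filtering, 10302 cells were kept of 11306, and marker genes gave 22 cell classes, each called "-like" because its name rests on those markers. Endothelial-like cells numbered 994, of which 200 were aerocyte capillary-like, 619 general capillary-like, 153 large vessel endothelial-like and 22 lymphatic endothelial-like. Aerocytes are the wide, thin capillary cells that face the alveolar air space, and general capillary cells are the other capillary type of the alveolus. The summed level of 10 endothelial markers was 17366, 10187, 8628 and 5801 CPM in these 4 classes, in that order, and at most 908 CPM in any other class. Of the lymphatic-named cluster of 263 cells, only the 22 with at least 3 of 5 lymphatic markers kept the name. That requirement was chosen after the data were seen, and 259 cells in all stayed unnamed, with a median of 1099 detected genes. CPM is a gene's sum over the cells of a class, per 1000000 of the sum over all genes. With 1 library in each group no difference could be tested. CPM values of classes therefore carry no error, and each share of positive cells is followed by its 95% interval (exact, Clopper-Pearson), which covers counting error only. A ratio is a log2 ratio of CPM with 1 CPM added to both sides, and it is called higher or lower where its size is 1 or more. T-like cells serve as a class that should lack the receptors and most ligands. The share of T-like cells (median 1620 detected genes) with a value above 0 was 1.86% for Kdr, 1.30% for Flt1, 0.186% for Flt4, 4.28% for Nrp1 and 0.744% for Nrp2. For Nrp1 they are not a uniform background, since the share was 2.61% (1.66% to 3.896%) in the larger T-like cluster and 11.7% (7.59% to 17.1%) in the smaller, cycling one.

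The regulatory sequence just before the start of 3 genes is shown first because the results turn on them: Kdr and Flt1 were both high in the capillary- and large vessel endothelial-like classes, and Vegfa had its highest level in alveolar type 1-like cells. Each line gives the 250 bases upstream of the RefSeq start on GRCm38.p6, 5′ to 3′ on the strand of the gene, which is the minus strand for all 3; for Vegfa it is the more upstream of 2 RefSeq starts. Capitals mark the letters GGAAG or their reverse complement CTTCC, an extended core of the motif bound by ETS factors, and TATAAA, the TATA box.
Kdr, chr5:75978456-75978705: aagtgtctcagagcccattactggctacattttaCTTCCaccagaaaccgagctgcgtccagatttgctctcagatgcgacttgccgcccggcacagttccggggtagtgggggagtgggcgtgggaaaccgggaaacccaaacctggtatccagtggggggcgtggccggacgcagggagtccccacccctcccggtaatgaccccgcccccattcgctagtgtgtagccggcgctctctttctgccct
Flt1, chr5:147726012-147726261: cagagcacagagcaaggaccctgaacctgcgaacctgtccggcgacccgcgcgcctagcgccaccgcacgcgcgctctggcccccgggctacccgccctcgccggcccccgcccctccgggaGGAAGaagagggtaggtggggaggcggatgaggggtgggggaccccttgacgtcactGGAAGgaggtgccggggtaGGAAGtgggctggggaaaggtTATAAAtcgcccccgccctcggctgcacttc
Vegfa, chr17:46032378-46032627: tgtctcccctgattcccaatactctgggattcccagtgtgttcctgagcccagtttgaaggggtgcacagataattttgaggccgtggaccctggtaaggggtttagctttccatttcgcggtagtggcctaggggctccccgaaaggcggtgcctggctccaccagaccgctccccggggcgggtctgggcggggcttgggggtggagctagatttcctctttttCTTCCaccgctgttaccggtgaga

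The Flt1 window holds GGAAG at 128, 71 and 52 bases upstream and TATAAA at 31 bases upstream. The Kdr window holds 1 such match, at 216 bases upstream, and no TATAAA. The Vegfa window holds 1, at 24 bases upstream, and again no TATA box. The Sp1 GC box, GGGCGG, was found at 3 places in the Flt1 window, 2 in that of Kdr and 2 in that of Vegfa. The hypoxia element cores ACGTG and GCGTG were both absent from the Vegfa window shown. The window before the more downstream RefSeq start of Vegfa, not shown, holds GCGTG at 218 and ACGTG at 211 bases upstream. That window, chr17:46025164-46025413, lies inside the span of the Vegfa gene, so these matches are not upstream of the gene. GCGTG was at 2 places in the Kdr window and 1 in the Flt1 window. Both strands were searched, and the matches marked in capitals do not overlap each other. Of 32536 RefSeq windows of the same length, 64.1% held GGAAG, 33% GGGCGG, 12.3% TATAAA, 16.7% ACGTG and 28.3% GCGTG. A match is a description of the letters and not evidence of binding. On mm10 with the GENCODE M21 annotation, Kdr (ENSMUSG00000062960.10) spans chromosome 5 from 75932827 to 75978458, Flt1 (ENSMUSG00000029648.13) chromosome 5 from 147561604 to 147726011 and Vegfa (ENSMUSG00000023951.17) chromosome 17 from 46016993 to 46032369. Of the 9 genes only Nrp1, on chromosome 8 from 128358604 to 128503363, shares exonic sequence with another annotated gene, the microRNA Mir1903 on the same strand.

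**Figure D1:**
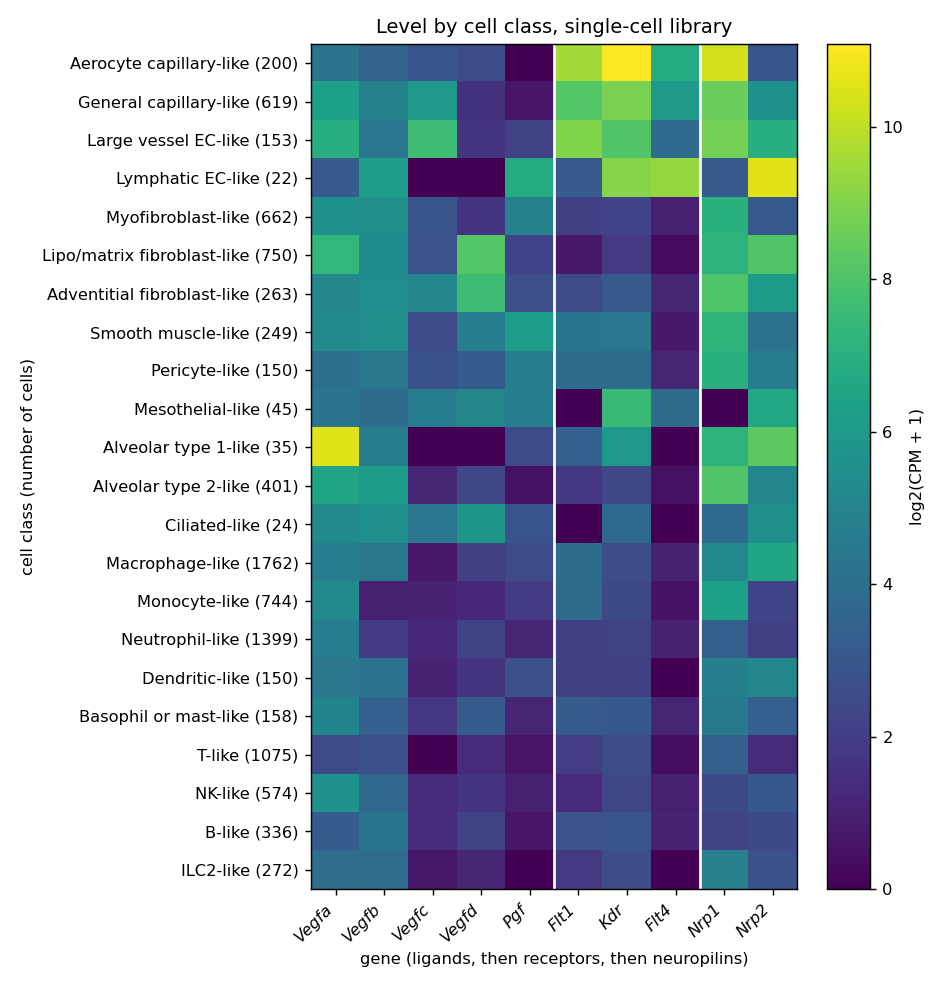
Level of each ligand, receptor and neuropilin gene (columns, in the order ligands, receptors, neuropilins) in each of the 22 cell classes (rows, with the number of cells), as log2(CPM + 1). Kdr, Flt1 and Nrp1 are all brightest in the aerocyte capillary-like row, Kdr is next brightest in the lymphatic row, Flt4 and Nrp2 in the lymphatic row, Vegfa in the alveolar type 1-like row and Vegfd in the lipofibroblast or matrix and adventitial fibroblast-like rows.

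Vegfa, the ligand of both blood vessel receptors, had 1483 CPM in alveolar type 1-like cells, the flat cells of gas exchange. It was above 0 in all 35 of these cells (100%, interval 90.0% to 100%), with a median value of 9 and a highest value of 25 in a cell. Lipofibroblast or matrix fibroblast-like cells followed at 162 CPM and 58.3% of 750 cells (54.6% to 61.8%), with a median value of 1 in the cells that had any. These first 2 classes did not overlap in their shares. Large vessel endothelial-like cells had 123 CPM, alveolar type 2-like cells, the surfactant-making cells, 88.2 CPM, and general capillary-like cells 76.1 CPM. The shares of large vessel endothelial-like cells (37.3%, 29.6% to 45.4%) and of alveolar type 2-like cells (39.7%, 34.8% to 44.6%) overlapped. Below these, NK-like cells had 49.8 CPM, myofibroblast-like cells 47.2 CPM and aerocyte capillary-like cells 18.5 CPM. T-like cells were at the bottom, at 4.90 CPM and 2.42% of cells.

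Because classes differ in size, the highest level and the largest share of the summed values belonged to different classes. The 35 alveolar type 1-like cells held 10.8% of all Vegfa values in the kept cells, and the 750 lipofibroblast or matrix fibroblast-like cells held 24.6%. All fibroblast-like classes other than myofibroblast-like held 26.6%, myeloid-like cells 22.1%, epithelial-like cells 18.6% and endothelial-like cells 13.8%. These are shares of a sorted suspension and not of the lung. They rest on values taken as adjusted for depth, so differences in RNA content between cells may not be reflected in them.

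Vegfd was a fibroblast gene here. Lipofibroblast or matrix fibroblast-like cells had 289 CPM and 74.4% of cells with a value (71.1% to 77.5%), and adventitial fibroblast-like cells, the fibroblasts around vessels and airways, had 199 CPM and 59.7% (53.5% to 65.7%). These shares did not overlap, and together the 2 classes held 88.0% of all Vegfd values. The next class, ciliated-like, had 57.9 CPM from 2 of 24 cells.

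Vegfc was mostly endothelial. Large vessel endothelial-like cells had 198 CPM and 51.0% of 153 cells (42.8% to 59.1%), general capillary-like cells 59.7 CPM and 20.5% (17.4% to 23.9%), and adventitial fibroblast-like cells 33.5 CPM and 17.5% (13.1% to 22.6%). The shares of the general capillary- and adventitial fibroblast-like classes overlapped. Endothelial-like cells held 69.0% of all Vegfc values, and no T-like cell of 1075 had one. The large vessel endothelial-like class joins 2 clusters that differed in Vegfc. The cluster led by Vwf, Fabp4, Fbln2 and Moxd1 had 320 CPM and 75.3% of 85 cells (64.7% to 84.0%), and the cluster led by Dkk2, Cxcl12, Gja5 and Sema3g had 39.5 CPM and 20.6% of 68 cells (11.7% to 32.1%). Gja5 is known from arterial endothelium. Vwf was among the 10 leading genes of both clusters, and Vegfc itself was among those of the Vwf-led cluster. By mean centred log2 level of markers, the Vwf-led cluster scored 5.32 for general capillary cells and 3.955 for large vessel endothelium. It took its name from 4 large vessel endothelial markers among its 10 leading genes. With predicted doublets kept or with finer clustering, the Vwf-led cells went unnamed (83 and 85 of the 85 cells). The class level of Vegfc was then 39.0 and 39.5 CPM, below that of general capillary-like cells (57.2 and 59.7 CPM).

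Vegfb, which encodes a ligand of FLT1, was spread widely. It had 72.9 CPM in lymphatic endothelial-like cells, from 8 of 22 cells, and 64.0 CPM in alveolar type 2-like cells, where 35.2% (30.5% to 40.1%) had a value. The ciliated-, smooth muscle-, myofibroblast-, adventitial fibroblast- and lipofibroblast or matrix fibroblast-like classes lay between 41.4 and 45.05 CPM. Each of the 7 highest classes overlapped in its share with the next. Pgf had 113 CPM in lymphatic endothelial-like cells, from 7 of 22 cells, 70.6 CPM in smooth muscle-like cells (25.7%, 20.4% to 31.6%) and 30.3 CPM in myofibroblast-like cells (12.99%, 10.5% to 15.8%). It was at 0 in all aerocyte capillary-like cells. Myofibroblast-like cells held 31.1% and smooth muscle-like cells 26.5% of all Pgf values.

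**Figure D2:**
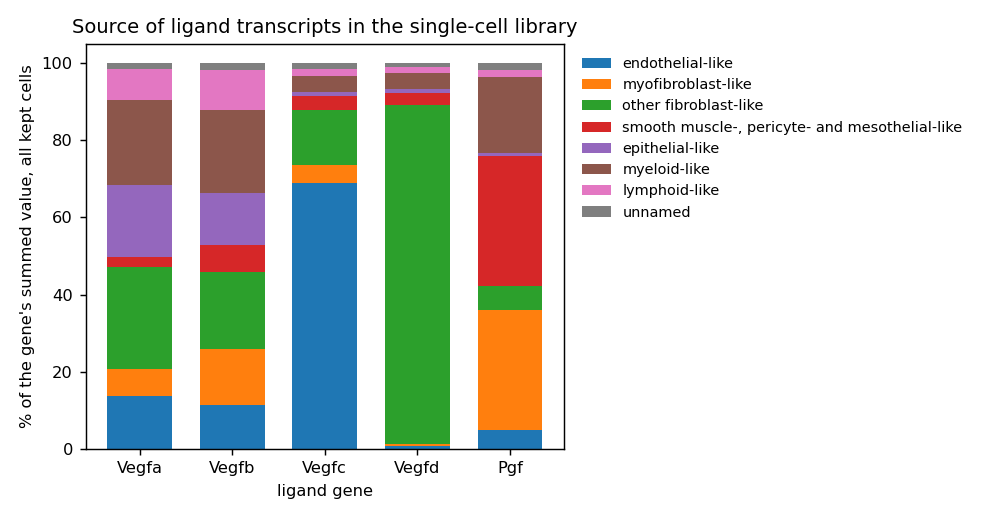
Share of each ligand gene's summed single-cell value, over all kept cells, that came from each group of cell classes; the bars sum to 100%. Vegfd came mostly from fibroblast-like cells other than myofibroblast-like (88.0%) and Vegfc mostly from endothelial-like cells (69.0%), while Vegfa and Vegfb were divided over many groups.

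Kdr, the main VEGF receptor gene of blood vessels, had 2173 CPM in aerocyte capillary-like cells and was above 0 in 96.5% of them (92.9% to 98.6%), with a median value of 11 in those cells. Lymphatic endothelial-like cells had 535 CPM (90.9%, 70.8% to 98.9%), general capillary-like cells 465 CPM (84.8%, 81.7% to 87.6%) and large vessel endothelial-like cells 267 CPM (61.4%, 53.2% to 69.2%). The shares of the aerocyte capillary- and lymphatic-like classes overlapped, as did those of the lymphatic- and general capillary-like classes. Outside the endothelium, Kdr had 180 CPM in mesothelial-like cells, the lining of the lung surface, where 66.7% of 45 cells (51.0% to 80.0%) had a value. In these cells Flt1 was at 0 in all 45, so that up to 6.67% of such cells (3 of 45) could have a value at this depth; this says nothing of expression below detection. The endothelial marker list summed to 187 CPM in mesothelial-like cells with 2 of 10 markers at 0, close to the 182 CPM of T-like cells. In alveolar type 1-like cells Kdr had 58.9 CPM from 2 of 35 cells. Both of these cells also had Flt1 and Nrp1, and the endothelial list summed to 908 CPM in that class. The part of stray endothelial RNA or unremoved doublets in that value was not tested.

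Flt1, whose protein binds VEGFA, VEGFB and PGF, had 748 CPM in aerocyte capillary-like cells (85.0%, 79.3% to 89.6%), 512 CPM in large vessel endothelial-like cells (87.6%, 81.3% to 92.4%) and 287 CPM in general capillary-like cells (72.4%, 68.7% to 75.9%). The first 2 shares overlapped, and that of general capillary-like cells was lower than both. In lymphatic endothelial-like cells Flt1 had 8.10 CPM, from 1 of 22 cells. Smooth muscle-like cells had 19.0 CPM, macrophage-like cells 14.2 CPM (7.43%, 6.25% to 8.76%) and monocyte-like cells 13.4 CPM (6.59%, 4.91% to 8.61%), all with shares above that of T-like cells. Of 249 smooth muscle-like cells, 18 had Flt1 and 5 had both Kdr and Flt1. The part of stray endothelial RNA or unremoved doublets in these Flt1 values was not tested.

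Flt4, the receptor gene for VEGFC and VEGFD, had 648 CPM in lymphatic endothelial-like cells, where 20 of 22 cells had a value (90.9%, 70.8% to 98.9%). It was also present in blood capillaries: 109 CPM in aerocyte capillary-like cells (36.5%, 29.8% to 43.6%) and 60.3 CPM in general capillary-like cells (26.8%, 23.4% to 30.5%), with overlapping shares. Large vessel endothelial-like cells had 13.7 CPM and 7.19% (3.64% to 12.5%). The unnamed cells held 11.2% of all Flt4 values, and they include marker-positive lymphatic cells of other clusters.

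Nrp1 was found well beyond the endothelium. It had 1298 CPM in aerocyte capillary-like cells (92.5%, 87.9% to 95.7%), 440 CPM in large vessel endothelial-like cells and 369 CPM in general capillary-like cells. Alveolar type 2-like cells had 272 CPM, with 80.8% (76.6% to 84.5%) of cells positive, and adventitial fibroblast-like cells 259 CPM with 76.0% (70.4% to 81.1%). From the aerocyte capillary-like class down to the adventitial fibroblast-like class, each of these 5 shares overlapped with the next in order of level. Smooth muscle-, lipofibroblast or matrix fibroblast-, alveolar type 1-, myofibroblast- and pericyte-like cells lay between 129 and 149 CPM. Nrp1 was at 8.10 CPM in lymphatic endothelial-like cells, from 1 of 22 cells, and at 0 in all 45 mesothelial-like cells, with the same limit as for Flt1. Among macrophage-like cells (36.9 CPM in all), 1 cluster of 72 cells led by Ccl12, Pf4 and C1q genes had 189 CPM. Among monocyte-like cells (76.8 CPM), the cluster of 216 cells led by Cd300e and Adgre4 had 126 CPM.

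Nrp2, the neuropilin of lymphatic vessels and a partner of FLT4, had 1523 CPM in lymphatic endothelial-like cells, with all 22 positive (100%, 84.6% to 100%). Alveolar type 1-like cells followed with 309 CPM (77.1%, 59.9% to 89.6%) and lipofibroblast or matrix fibroblast-like cells with 267 CPM (70.8%, 67.4% to 74.0%). Their shares overlapped with each other. Macrophage-like cells had 91.7 CPM (40.1%, 37.8% to 42.4%) and, through their number, held 29.98% of all Nrp2 values, against 35.7% in lipofibroblast or matrix fibroblast-like cells. Aerocyte capillary-like cells, with 6.82 CPM (2.50%), and myofibroblast-like cells, with 7.45 CPM (3.32%), were among the low classes.

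Endothelial-like cells as a whole were then set against all other cells. Of the 9 genes, 5 were higher by a log2 ratio of 1 or more and 1 was lower, beside 10.3% and 19.2% of the 15423 genes measured in that comparison. Kdr had 756 CPM in endothelial-like cells and 7.46 CPM in all other cells, a log2 ratio of 6.48. Flt1 had 404 and 7.37 CPM (5.60), Flt4 75.3 and 1.93 CPM (4.70), Vegfc 70.7 and 3.34 CPM (4.05) and Nrp1 548 and 69.4 CPM (2.96), each with the endothelial-like value first. Vegfd was lower, at 2.57 CPM in endothelial-like cells against 33.8 CPM in all other cells (-3.29). Vegfa, Vegfb and Nrp2 were within a log2 ratio of 1, at 0.60, 0.29 and 0.68. For Nrp2, a stricter cell filter gave 1.07 and lymphatic marker-positive cells of any cluster 1.008. The median over the 9 genes was 2.96, beside -0.01 over all genes.

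Genes that act with these receptors were listed by role. In this comparison 10.3% of all genes were higher and 19.2% lower. Of 32 genes for VEGF receptor signalling and partners, 11 were higher and 4 lower in endothelial-like cells. Rasip1, a Rap1 effector needed for vessel lumens, had 440 CPM in endothelial-like cells and 8.70 CPM in all others (5.51), and Nos3, the endothelial nitric oxide synthase, 29.4 and 1.16 CPM (3.82). Of 20 genes known to respond to VEGF in endothelium, 10 were higher and 5 lower, and 3 of the 20 were also cell type markers. Dll4, a Notch ligand, had 77.7 CPM in endothelial-like cells and 1.14 CPM in all others (5.20). Of 18 measured angiopoietin and other angiogenic genes, 13 were higher and 3 lower, but 6 of the 18 were also cell type markers, among them Tie1, a partner receptor of TEK (296 CPM in endothelial-like cells and 4.15 CPM in all others, 5.85). Of 19 measured genes of hypoxia and Vegfa transcription, 2 were higher and 3 lower (10.5% and 15.8%), near the shares of all genes. Epas1, the HIF-2α gene, had 787 CPM in endothelial-like cells and 25.4 CPM in all others (4.90), and Ankrd37 20.6 and 5.92 CPM (1.64). In the same list Egln3 was lower, with 1.29 CPM in endothelial-like cells and 8.79 CPM in all others (-2.10). Slc2a1 was also lower, with 8.27 and 26.8 CPM (-1.58). Of 15 measured genes of VEGFC and VEGFD processing and response, 6 were higher and 3 lower, and 6 of the 15 were cell type markers. Pcsk5, a proprotein convertase gene, had 76.4 CPM in endothelial-like cells and 12.1 CPM in all others (2.57). Of 15 measured binding proteins and decoys, 8 were higher and 5 lower. Sema3f, a semaphorin that binds NRP2, had 157 CPM in endothelial-like cells and 6.67 CPM in all others (4.37), and Thbs1, which encodes the angiogenesis inhibitor thrombospondin-1, had 32.0 and 354 CPM (-3.43).

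Aerocyte capillary-like cells had more Kdr, Flt1 and Nrp1 than general capillary-like cells, and less Vegfa, Vegfb, Vegfc and Nrp2. Among the 8 genes with enough values, 3 were higher and 4 lower, beside 6.62% and 12.4% of 10242 genes, and the ninth, Vegfd, was below the minimum of 20 summed values. Kdr had 2173 CPM in aerocyte capillary-like cells and 465 CPM in general capillary-like cells (2.22), Nrp1 1298 and 369 CPM (1.81) and Flt1 748 and 287 CPM (1.38). Flt4, with 109 and 60.3 CPM (0.85), was within the limit. Vegfc had 6.82 CPM in aerocyte capillary-like cells and 59.7 CPM in general capillary-like cells (-2.96), Nrp2 6.82 and 46.5 CPM (-2.60), Vegfa 18.5 and 76.1 CPM (-1.98) and Vegfb 10.7 and 30.4 CPM (-1.42, or -0.96 with 10 CPM added). Aerocyte capillary-like cells had a median of 1896 detected genes and general capillary-like cells 2237. The median over the 8 genes was -0.29, beside -0.13 over all genes.

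Partner genes divided in the same comparison, in which 6.62% of all genes were higher and 12.4% lower. Of 18 VEGF-responsive genes with enough values, 3 were higher and 9 lower in aerocyte capillary-like cells; that list shares 3 genes with the cell type markers, among them Plvap and Apln. Hbegf, an EGF receptor ligand, had 6.82 CPM in aerocyte capillary-like cells and 37.2 CPM in general capillary-like cells (-2.29). Of 29 signalling genes 1 was higher and 6 were lower: Hspb1, a small heat shock protein gene downstream of KDR and p38, had 187 CPM in aerocyte capillary-like cells and 38.9 CPM in general capillary-like cells (2.24). Of 11 binding proteins and decoys, 4 were higher and 2 lower. Timp3, a protease inhibitor whose protein blocks VEGFA from KDR, had 917 CPM in aerocyte capillary-like cells and 121 CPM in general capillary-like cells (2.91), and Sema3f 355 and 112 CPM (1.66). Hspg2, which encodes the heparan sulphate proteoglycan perlecan, had 21.4 and 147 CPM (-2.72). Of 6 genes of VEGFC and VEGFD processing and response, 2 were higher and 1 lower: Pcsk5 had 1.95 CPM in aerocyte capillary-like cells and 65.5 CPM in general capillary-like cells (-4.50). Of 15 hypoxia genes none passed a log2 ratio of 1 in either direction. Of 15 angiogenic partners 3 were higher and 5 lower, and that list shares 6 genes with the cell type markers, among them Aplnr, Tek and Apln, which are past the limit here. Efnb2, the ephrin-B2 gene, had 83.8 CPM in aerocyte capillary-like cells and 214 CPM in general capillary-like cells (-1.34).

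**Figure D3:**
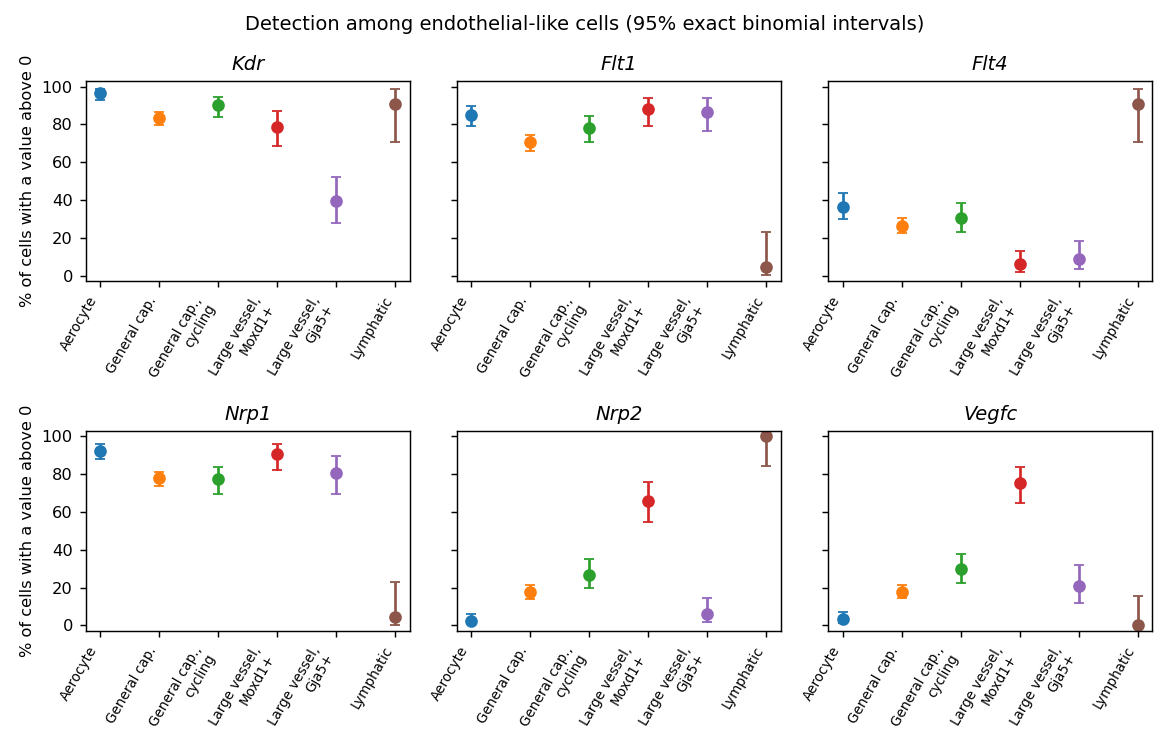
Share of cells with a value above 0 for 6 genes in 6 sets of endothelial-like cells, with exact 95% binomial intervals; the general capillary- and large vessel-like classes are shown by cluster. Kdr is high in aerocyte (96.5%) and lymphatic cells (90.9%) and lower in the Gja5+ large vessel cluster (39.7%), Flt4 and Nrp2 stand out in lymphatic cells, and Vegfc stands out in the Moxd1+ large vessel cluster (75.3%).

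The endothelial clusters differed in more than Vegfc. The Vwf-led large vessel cluster had 382 CPM of Kdr, with 78.8% of cells positive (68.6% to 86.9%), and the Gja5+ cluster 116 CPM with 39.7% (28.03% to 52.3%). Nrp2 had 215 CPM in the Vwf-led cluster (65.9%, 54.8% to 75.8%) and 10.5 CPM in the Gja5+ cluster (5.88%, 1.63% to 14.4%). Vegfa went the other way, with 52.3 CPM in the Vwf-led cluster (17 of 85 cells, 12.1% to 30.1%) and 216 CPM in the Gja5+ cluster (58.8%, 46.2% to 70.6%). None of these 3 pairs of intervals overlapped, while those of Flt1 and Nrp1 did. These clusters were formed without the 9 genes and without the partner lists, but from other genes of the same cells, so that these values are a description. The general capillary-like class also joins 2 clusters, of which the smaller, of 142 cells, was led by cell cycle genes. Kdr was close in them, at 478 CPM in the cycling cluster and 461 CPM in the other, and Vegfc was 86.6 and 50.6 CPM.

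Receptors were often found in the same cell. Kdr and Flt1 were both above 0 in 84.5% of aerocyte capillary-like cells (78.7% to 89.2%), 63.7% of general capillary-like cells (59.7% to 67.4%), 58.2% of large vessel endothelial-like cells (49.9% to 66.1%) and 1 of 22 lymphatic endothelial-like cells. Kdr and Nrp1 were found together in 92.5% of aerocyte capillary-like cells (87.9% to 95.7%) and 67.7% of general capillary-like cells (63.8% to 71.4%). Every aerocyte capillary-like cell with Nrp1 or Flt4 also had Kdr. Flt4 and Nrp2 were together in 90.9% of lymphatic endothelial-like cells (70.8% to 98.9%), and Kdr and Flt4 in 81.8% (59.7% to 94.8%). Both neuropilins were above 0 in 42.9% of alveolar type 1-like cells (26.3% to 60.6%), 36.6% of large vessel endothelial-like cells (29.0% to 44.8%), 34.9% of lipofibroblast or matrix fibroblast-like cells (31.5% to 38.5%) and 2.50% of aerocyte capillary-like cells (0.817% to 5.74%). The ligand Vegfa was found beside Kdr in 23.7% of general capillary-like cells (20.4% to 27.3%), 20.3% of large vessel endothelial-like cells (14.2% to 27.5%) and 15 of 200 aerocyte capillary-like cells (4.26% to 12.1%). A pair is found together more often where both genes are high, and co-detection was not corrected for that.

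Epithelial-like cells were higher in 3 of the 9 genes and lower in 5, beside 14.8% and 23% of 15423 genes. All other cells here include the endothelial-like cells, which held 91.4% of Kdr, 85.2% of Flt1 and 80.4% of Flt4 values. Vegfa had 187 CPM in epithelial-like cells and 41.9 CPM in all other cells (2.13). The 35 alveolar type 1-like cells gave 302 of the 523 summed Vegfa values of this pool. Its 401 alveolar type 2-like cells had 88.2 CPM of Vegfa, below the lipofibroblast or matrix fibroblast- and large vessel endothelial-like classes. Vegfb had 60.1 CPM in epithelial-like cells and 19.4 CPM in all others (1.58), and Nrp1 249 and 108 CPM (1.20). Nrp1 was no longer past the limit with finer clustering (0.88) or when the 9 genes and the partner lists could serve as clustering genes (0.87). Flt1 had 2.86 CPM in epithelial-like cells and 47.2 CPM in all others (-3.64), Kdr 8.58 and 82.2 CPM (-3.12), Flt4 0.358 and 9.34 CPM (-2.93), Vegfd 6.79 and 32.1 CPM (-2.09) and Vegfc 2.15 and 10.1 CPM (-1.82). Vegfc and Flt4 were within the limit with 10 CPM added, at -0.73 and -0.90, which left 3 genes lower beside 12% of all genes. Nrp2 was at -0.06, and the median of all genes was -0.21. In all cells but endothelial-like ones Kdr had 7.46 CPM, so epithelial-like cells were not lower in Kdr outside the endothelium. Flt1, Flt4 and Vegfc had 7.37, 1.93 and 3.34 CPM there, above the epithelial-like values. Vegfd came mostly from fibroblast-like cells other than myofibroblast-like (88.0%). The partner lists below were set against the same pool of all other cells. Of 19 hypoxia genes 3 were higher and 4 lower (15.8% and 21.1%), near the 14.8% and 23% of all genes. P4ha1, a collagen prolyl hydroxylase gene induced by hypoxia, had 75.8 CPM in epithelial-like cells and 29.8 CPM in all others (1.32), and Bnip3, a mitophagy gene and HIF target, 50.8 and 15.6 CPM (1.64). Lower in the same list were Egln3, with 2.15 CPM in epithelial-like cells and 8.38 CPM in all others (-1.58), and Car9, with 0.358 and 1.98 CPM (-1.13). Of 15 binding proteins and decoys 4 were higher and 6 lower. Sema3e, a ligand of plexin-D1, had 55.1 CPM in epithelial-like cells and 4.04 CPM in all others (3.48). Of 20 VEGF-responsive genes, 2 were higher and 15 lower in epithelial-like cells. Hbegf had 201 CPM there and 11.5 CPM in all others (4.02), and Dusp5, which was lower, had 19.3 and 244 CPM (-3.59). Of 32 signalling genes 3 were higher and 14 lower, of 18 angiogenic partners 0 were higher and 15 lower, and of 15 genes of VEGFC and VEGFD processing and response 2 were higher and 10 lower. Eng had 2.86 CPM in epithelial-like cells and 85.0 CPM in all others (-4.48), and Ctsd, the cathepsin D gene, 154 and 889 CPM (-2.52).

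**Figure D4:**
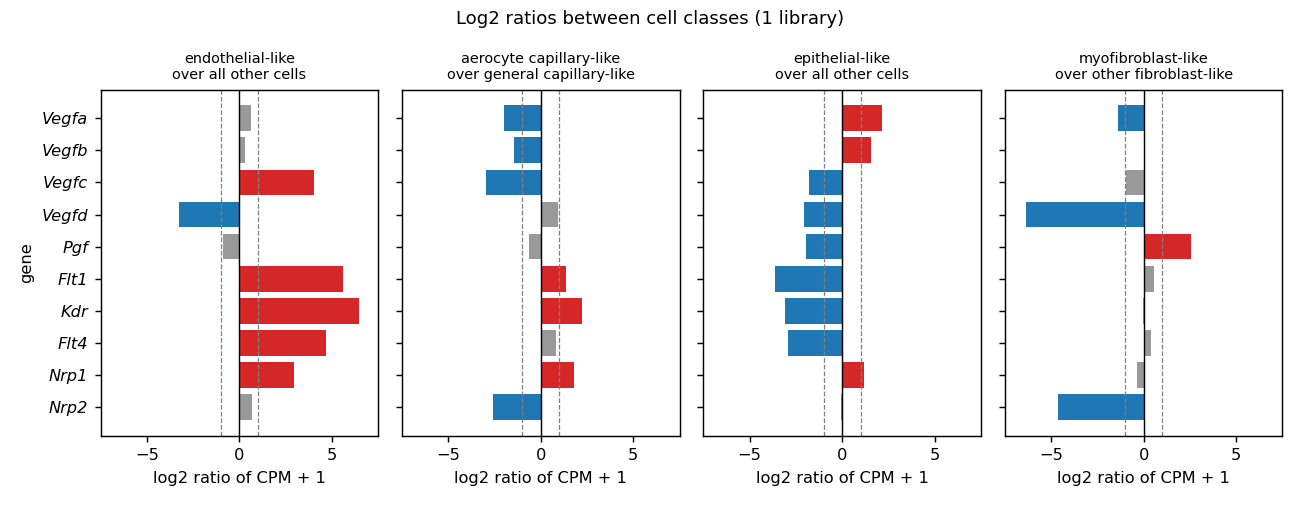
Log2 ratio of CPM + 1 for each gene in 4 comparisons within the single-cell library; red bars are at 1 or more, blue bars at -1 or less, grey bars between, and dashed lines mark 1 and -1. The receptor genes and Nrp1 point up in the endothelial-like panel, Kdr, Flt1 and Nrp1 point up and Vegfa, Vegfb, Vegfc and Nrp2 down in the aerocyte panel, and Vegfd (-6.36) and Nrp2 (-4.65) are far below 0 in the myofibroblast panel.

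The fibroblast-like classes divided by Vegfd and Nrp2. Myofibroblast-like cells, the PDGFRA-rich cells that lay down elastin in forming septa, were lower than the other fibroblast-like cells in 3 of 8 genes with enough values and higher in none, beside 8.18% of 12403 genes in each direction. Vegfd had 2.24 CPM in myofibroblast-like cells, with 1.06% of cells positive, and 264 CPM in other fibroblast-like cells, with 70.6% positive (-6.36). Nrp2 had 7.45 CPM (3.32% of cells) in myofibroblast-like cells and 212 CPM (59.4%) in other fibroblast-like cells (-4.65). Vegfa had 47.2 CPM (25.1%) in myofibroblast-like cells and 127 CPM (47.6%) in other fibroblast-like cells (-1.41). That pool joins unlike classes, since Vegfa had 162 CPM (58.3%) in lipofibroblast or matrix fibroblast-like cells. In adventitial fibroblast-like cells Vegfa had 34.1 CPM (17.1%), below the myofibroblast-like value. Vegfc was at -0.97 (-1.15 with a stricter cell filter), Nrp1 at -0.37, Vegfb at 0.07, Kdr at -0.05 and Flt1 at 0.56, and Flt4 was below the minimum. By class, Vegfc had 33.5 CPM in adventitial fibroblast-like, 6.08 CPM in lipofibroblast or matrix fibroblast-like and 6.46 CPM in myofibroblast-like cells. Pgf was higher in myofibroblast-like cells, with 30.3 CPM there and 4.25 CPM in other fibroblast-like cells (2.58). Myofibroblast-like cells had a median of 2806 detected genes and lipofibroblast or matrix fibroblast-like cells 2366. Both clusters of the myofibroblast-like class were low in Vegfd (2.53 CPM in 524 cells and 1.16 CPM in 138 cycling cells) and in Nrp2 (9.16 and 1.16 CPM).

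In this comparison 8.18% of all genes were higher and 8.18% lower. Among the partner genes, 3 of 10 for VEGFC and VEGFD processing and response were higher in myofibroblast-like cells and 2 lower. Adamts14, a relative of the protease that activates VEGFC, had 23.4 CPM in myofibroblast-like cells and 2.89 CPM in other fibroblast-like cells (2.65), and Itga9, the integrin α9 gene, 333 and 30.4 CPM (3.41). Of 17 angiogenic partners 4 were higher and 3 lower. Angpt1, the TEK ligand that steadies vessels, had 14.7 CPM in myofibroblast-like cells and 140 CPM in other fibroblast-like cells (-3.18), and Eng, a TGF-β co-receptor gene, 234 and 29.1 CPM (2.97). Of 14 binding proteins and decoys 4 were higher and 2 lower. Sema3c, a neuropilin ligand, had 148 CPM in myofibroblast-like cells and 17.8 CPM in other fibroblast-like cells (2.98), and Ptn, the pleiotrophin gene, 4.97 and 169 CPM (-4.83). Of 17 hypoxia genes 2 were higher and 3 lower. Egln3, an oxygen-sensing prolyl hydroxylase gene that HIF induces, had 60.1 CPM in myofibroblast-like cells and 1.02 CPM in other fibroblast-like cells (4.92). Of 17 VEGF-responsive genes 5 were higher and 5 lower, and Unc5b, a netrin receptor gene, had 111 and 7.81 CPM (3.67). Of 31 signalling genes 6 were higher and 1 lower, led by Spry2 at 30.6 CPM in myofibroblast-like cells and 10.7 CPM in other fibroblast-like cells (1.43).

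The bulk library of PDGFRA+ cells gave 171910581 reads over 16905 gene symbols. On the per-length TPM scale the ligands Vegfd and Vegfa had 135 and 48.0 TPM, Pgf 42.4 TPM, Vegfb 42.2 TPM and Vegfc 8.94 TPM. Of the co-receptors, Nrp1 had 58.5 TPM and Nrp2 14.3 TPM. The endothelial receptors were low: 1.25 TPM for Kdr (597 reads), 0.44 TPM for Flt4 (222 reads) and 0.39 TPM for Flt1 (215 reads), against a median of 8.47 TPM over all listed genes. The 10 endothelial markers ranged up to 171 TPM, for Ramp2, with a median of 4.19 TPM, and 9 of them were at 1 TPM or more. The 12 myofibroblast markers had a median of 244 TPM, and Pdgfra, the lowest of them, had 54.0 TPM. The 10 adventitial fibroblast markers had a higher median, 578 TPM. The 9 smooth muscle markers had a median of 178 TPM and the 11 lipofibroblast or matrix fibroblast markers 74.9 TPM. All 10 alveolar type 2 markers were at 1 TPM or more, with a median of 6.57 TPM and 211 TPM for Sftpc. In bulk RNA, fewer cells of a type and less RNA per cell cannot be told apart.

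As CPM, with exact Poisson 95% intervals for counting error, Vegfd had 117 CPM in the bulk library (116 to 119) and 158 CPM in the pooled fibroblast-like cells, a log2 ratio of -0.42. Nrp1 had 170.5 CPM (168.5 to 172.4) in bulk and 159 CPM in fibroblast-like cells (0.10), and Vegfa 78.7 CPM (77.3 to 80.0) and 94.5 CPM (-0.26). Nrp2 was the only one of the 9 genes past a log2 ratio of 1, at 45.2 CPM (44.2 to 46.2) in bulk and 129 CPM in fibroblast-like cells (-1.49), beside 17.7% of 14973 genes lower and 19.9% higher. With the deposited TPM in place of CPM, 4 were lower, namely Nrp2 (-3.09), Nrp1 (-1.42, against 0.10 with CPM), Flt1 (-1.30) and Kdr (-1.10), beside 25.3% of all genes lower and 10.5% higher and a median over all genes of -0.19, against 0.03 with CPM. Pgf had 32.6 CPM (31.7 to 33.4) in bulk and 14.8 CPM in fibroblast-like cells (1.08). Bulk CPM is not divided by gene length, and the single-cell values come from a 3′ chemistry. The ratios in CPM may therefore carry gene length, and its part in them was not tested. The 2 samples differ in assay, genotype and sort, which cannot be told apart. Set against myofibroblast-like cells alone, the bulk library was higher in Nrp2 (2.45) and in Vegfd (5.19) and lower in 0 of the 9 genes, beside 20.6% of all genes higher and 18.1% lower, so the direction for Nrp2 turned with the class compared. Pgf was then at 0.10. Pdgfra itself had 328 CPM in myofibroblast-like, 139 CPM in adventitial fibroblast-like and 44.7 CPM in lipofibroblast or matrix fibroblast-like cells, with 70.2%, 58.2% and 20.9% of these cells positive.

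**Figure D5:**
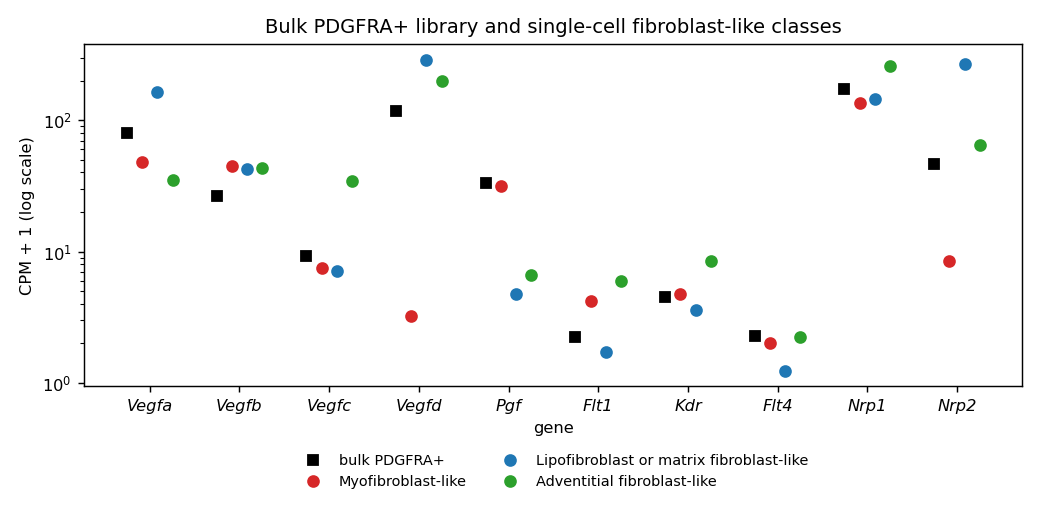
CPM + 1 (log axis) of each gene in the bulk PDGFRA+ library (squares) and in 3 fibroblast-like classes of the single-cell library (circles); each point is 1 library or 1 class of it and has no replicate. For Vegfd and Nrp2 the bulk value (117 and 45.2 CPM) lies between the myofibroblast-like value (2.24 and 7.45 CPM) and that of the lipofibroblast or matrix fibroblast-like class (289 and 267 CPM).

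Genes with the most similar pattern over the 22 classes were named by Pearson's r of log2(CPM + 1), among 12666 genes outside the marker lists. The points share 1 library and differ in cell number, and r is a description. For Kdr these were Podxl (0.97), Aqp1 (0.92) and Sox18 (0.92), and for Flt1 they were Clec1a (0.90), Pcdh1 (0.89) and Icam2 (0.88). For Flt4 they were Sh3tc2 (0.93), Kdr itself (0.87) and Fgd5 (0.87). Podxl encodes podocalyxin and Sox18 an endothelial transcription factor. For Vegfd they were 6030408B16Rik (0.93), Slc38a5 (0.93) and Mfap4 (0.92), all 3 highest in lipofibroblast or matrix fibroblast-like cells. For Vegfc they were Bace2 (0.87), Spin4 (0.85) and Jam2 (0.83), and for Vegfb Wee1 (0.89), Zfyve19 (0.87) and Scrn2 (0.87). Jam2 was highest in large vessel endothelial-like cells, as was Vegfc. Bace2 was highest in mesothelial-like cells (180 CPM) and Spin4 in ciliated-like cells (19.3 CPM). Wee1 shared its highest class, lymphatic endothelial-like, with Vegfb, while Zfyve19 was highest in alveolar type 2-like and Scrn2 in ciliated-like cells. Vegfa had the weakest match of the 9 genes, with Ndst1 (0.79), Arhgef26 (0.73) and Fam234a (0.72), all 3 highest in alveolar type 1-like cells. For Nrp1 they were Zdhhc16 (0.85), Zfp711 (0.82) and Sox13 (0.81), and for Nrp2 Fggy (0.84), Sec16a (0.83) and Ppfibp1 (0.82). None of the genes named for Nrp1 was highest in aerocyte capillary-like cells, where Nrp1 was highest. Those named for Nrp2 were all highest in lymphatic endothelial-like cells.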

How the data were processed

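The wild-type suspension was processed by the submitters with Cell Ranger 5.0 and Seurat 3.2.2, per the submitters' processing notes. For the bulk library these notes list Trim Galore, HISAT2, featureCounts, DESeq2 and mm10. The genome build for the single cells was not given in these notes or in the table. The score values the authors deposited for single cells are whole numbers per gene and cell. Their cell totals (median 5537) span only 1.79-fold, and they were therefore used as UMI values that the authors had adjusted for depth; the labels do not state that step. The test plan had allowed for raw counts, and intervals on class levels were therefore not given. The authors deposited an expected count and a TPM for each bulk gene. Counts were scaled to CPM, and TPM was used to compare genes.

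Cells with under 500 detected genes (0 cells) or over 10% mitochondrial values (646 cells) were left out, and a Scrublet-like score removed 358 doublets (3.36%); it called 44.9% of simulated doublets, so some remain. The 2000 variable genes excluded the 9 genes, Pgf and the partner lists. From 30 components and 15 neighbours, Leiden clustering (leidenalg 0.10.2, resolution 1) gave 35 clusters. A cluster took the type with the most markers (at least 2) among its 10 leading genes of 50 CPM or more, otherwise the type of highest mean centred log2 level (at least 1). Naming details were set after the data were seen. Ratios used genes of at least 20 summed values, and the ratio step was checked on simulated data. Named partner genes were chosen from up to 4 of each list with the largest absolute ratio and at least 100 summed values. Those that are also cell type markers were mostly left out of the text. Some others were left out too. Among them were Mdk, Sdc2 and Sh2d2a, lower in endothelial-like cells, and Fyn and Cxcr4, lower in epithelial-like cells. The members and lists were chosen with earlier results of these data known. Analyses ran in Python 3.11.15 with scipy 1.17.1; positions are from GENCODE M21, and promoter sequences from RefSeq were found for all 9 genes.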

Additional observations from a re-analysis of the deposited data

How the results depend on the processing

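The counts of the 9 genes past a log2 ratio of 1 changed little in the comparisons within the single-cell library. Over 11 alternatives 5 to 6 were higher in endothelial-like cells, beside 6.02% to 12% of all genes. Over 9 alternatives 3 were higher in aerocyte capillary-like cells, beside 3.81% to 8.05% of all genes. There 3 to 4 were lower, beside 5.63% to 13.7%. In myofibroblast-like cells 3 to 4 were lower, beside 4.27% to 9.27%. The exception was epithelial-like cells, with 3 genes lower, against 5, when 10 CPM were added (12% and 23% of all genes). The number higher in epithelial-like cells was 2 to 3 over 9 alternatives, beside 7.02% to 17% of all genes. With at least 1000 detected genes and at most 5% mitochondrial values, Vegfa was 1212 CPM in 20 alveolar type 1-like cells, Vegfd 274.8 CPM in lipofibroblast or matrix fibroblast-like cells, and Flt1, Kdr and Nrp1 were 620.6, 1955 and 1180 CPM in aerocyte capillary-like cells. Vegfc in large vessel endothelial-like cells was 38.98 CPM with doublets kept and 39.51 CPM at Leiden resolution 2, where the Vwf-led cells were unnamed. Taking lymphatic marker-positive cells of any cluster, an alternative chosen after seeing the data, gave 1270 CPM of Nrp2. In the bulk comparison, TPM gave 4 genes lower (Flt1, Kdr, Nrp1 and Nrp2; 25.3% of all genes), against 1 (17.7%). Myofibroblast-like cells alone gave 2 higher (20.6% of all genes) and 0 lower (18.1%), and Nrp2 turned to 2.449, against -1.491. Ranking bulk genes by TPM in place of CPM put Vegfb at percentile 79.91, Vegfc 51.05, Flt1 19.76, Kdr 28.12, Flt4 20.72, Nrp1 84.89 and Nrp2 59.64 (by CPM 63.0, 42.9, 26.5, 34.0, 26.7, 94.2 and 75.6). TPM divides by gene length and CPM does not; the cause of the other changes was not tested. No paired analysis was possible because each group has 1 sample, and no replicate could be left out. The lymphatic (22 cells), ciliated (24 cells) and alveolar type 1-like (35 cells) classes hold few cells, and their shares have wide intervals.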
